A study of Mus musculus with 4 samples.

Results

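The cells described here are endothelial barcodes in the library labelled fat P1 that carry RNA of interferon-stimulated genes. Barcodes had to hold 1000 or more UMIs (single molecules, told apart by a molecular tag) of 500 or more genes, with mitochondrial RNA no higher than 10%. A kept barcode was a member when Ifit1, Ifit3 and Isg15 together had at least 3 UMIs and Cdh5 and Pecam1 together at least 1. The rule, applied to that library, found 110 members among its 1948 kept barcodes (5.65%). All 4 libraries together held 11934 kept barcodes. Each member was set against the unused kept barcode with 0 UMIs of the 3 genes and the nearest UMI total, which gave 110 matched barcodes. The members were chosen by the counts of Ifit1, Ifit3, Isg15, Cdh5 and Pecam1 in the same barcodes, so every difference below is a description and carries no test.

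Interferons are secreted proteins that cells release when they meet viral or bacterial material. Types I and III act through a complex that includes STAT2 and IRF9 and binds the interferon-stimulated response element in DNA, while interferon gamma, the type II interferon, acts mainly through the gamma-activated site. The induced genes block viral replication, mark proteins with the ubiquitin-like modifier ISG15, attack the vacuoles of intracellular microbes and raise antigen presentation. Vessel endothelium is known to respond to both kinds of interferon.

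The study sorted vessel progenitor cells of C57BL/6 mice from fat and lung into populations P1 and P2, with 1 droplet library for each. Tie2 was required in both gates, and cells with CD45 or Ter119 were removed. P1 also had to be positive for CD31, negative for PDGFRa, high for CD105 and low for Sca1, whereas P2 was PDGFRa positive, CD31 negative, low for CD105 and high for Sca1. The age, sex and number of mice and any interferon or infection exposure are not given in the sources used here.

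Marker genes went against the tissue label of the library. Foxf1, a transcription factor of lung vessels, stood at 713 CPM (the summed UMIs of a gene, scaled to the summed UMIs of the group) in members and 735 CPM in matched barcodes. Fabp4, which is abundant in adipose capillaries, had 1 UMI in all members and 32 UMIs in matched barcodes, 25 of them in a single barcode. Hpgd, a prostaglandin-degrading enzyme abundant in lung endothelium, stood at 2615 CPM in members and 2502 CPM in matched barcodes. Fat is therefore used below as the label alone.

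Members had to hold a UMI of Cdh5 or Pecam1, so values that include these genes are description only. The endothelial label rests on the 11 endothelial list genes outside the rule, given after them. Cdh5, the adherens junction cadherin of endothelium, was seen in 107 members and 108 matched barcodes, and Pecam1, which encodes CD31, in 109 members and 107 matched barcodes. The list of endothelial identity genes, counted with Cdh5 and Pecam1, made up 0.540 to 28.2 UMIs per 1000 in members (median 16.0) and 0.214 to 35.3 in matched barcodes (median 15.8). At least 5 such UMIs per 1000 were found in 107 members and 106 matched barcodes. The 11 endothelial genes outside the rule together had 5 to 239 UMIs in members (median 46.5) and 0 to 169 in matched barcodes (median 44.5). These 11 genes had a median log2 ratio of 0.002 (members over matched barcodes, with 10 CPM added to both), and none was 2-fold higher or lower. Ptprc, which encodes CD45, had 0 UMIs in both groups, and so did the lists for T or NK cells, neutrophils and adipocytes.

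The members and matched barcodes were close in depth. UMI totals ran from 1727 to 18951 in members (median 3946.5) and from 1729 to 19852 in matched barcodes (median 3946), and the sums were 507865 and 503185 UMIs. Members had 1076 to 5205 genes (median 2001.5) and matched barcodes 1048 to 4238 (median 1980.5). Mitochondrial genes gave 1.89% to 9.38% of UMIs in members (median 5.15%) and 0.694% to 9.97% in matched barcodes (median 4.99%). Of the barcode sequences of this library, 20 also occurred in labelled lung P1, 8 in fat P2 and 1 in lung P2. Of these, 3 were members, and in no case was the partner barcode kept in the other library.

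The DNA just before the start of these genes is shown with the letters that interferon-activated factors are known to bind. Stretches of 300 bases, from 250 before the annotated start to 50 after it, were taken from RefSeq on GRCm38.p6 and are printed on the gene's own strand. Capitals mark the core of the interferon-stimulated response element, searched on both strands as GAAANNGAAA or TTTCNNTTTC. The rule genes are shown first because they chose the members. Isg15 lies on the minus strand of chromosome 4 (chr4:156200769-156201068), and its 3 core matches overlap between 78 and 57 bases before the start. Ifit1 (chr19:34640639-34640938, plus strand) and Ifit3 (chr19:34583279-34583578, plus strand) have 2 separate matches each. Rsad2 (chr12:26456403-26456702, minus strand), one of the strongest genes outside the rule, has 1.
Isg15: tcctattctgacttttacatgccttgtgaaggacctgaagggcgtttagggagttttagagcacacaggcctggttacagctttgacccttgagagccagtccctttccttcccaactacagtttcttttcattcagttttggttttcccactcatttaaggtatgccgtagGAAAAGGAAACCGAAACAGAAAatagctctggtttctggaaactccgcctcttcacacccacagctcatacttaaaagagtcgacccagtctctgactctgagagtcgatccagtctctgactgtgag
Ifit1: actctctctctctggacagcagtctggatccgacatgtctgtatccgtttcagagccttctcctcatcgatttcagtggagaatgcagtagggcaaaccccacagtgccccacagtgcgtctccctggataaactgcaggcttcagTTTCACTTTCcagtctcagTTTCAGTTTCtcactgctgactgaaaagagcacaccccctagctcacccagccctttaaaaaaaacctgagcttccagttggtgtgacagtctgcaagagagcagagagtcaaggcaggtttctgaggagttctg
Ifit3: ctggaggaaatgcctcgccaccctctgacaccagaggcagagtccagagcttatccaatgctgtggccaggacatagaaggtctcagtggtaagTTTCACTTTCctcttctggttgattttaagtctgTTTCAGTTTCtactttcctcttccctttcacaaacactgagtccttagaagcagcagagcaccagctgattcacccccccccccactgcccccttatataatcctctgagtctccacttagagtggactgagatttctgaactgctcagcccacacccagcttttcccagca
Rsad2: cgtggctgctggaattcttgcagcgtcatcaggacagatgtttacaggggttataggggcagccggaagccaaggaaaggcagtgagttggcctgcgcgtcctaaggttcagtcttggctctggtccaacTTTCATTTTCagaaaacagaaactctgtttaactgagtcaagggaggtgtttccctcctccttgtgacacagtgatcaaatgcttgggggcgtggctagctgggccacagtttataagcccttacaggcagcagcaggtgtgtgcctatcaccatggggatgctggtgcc

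Igtp and Irgm2 encode immunity-related GTPases and are shown because they carry both kinds of element. Capitals in these stretches mark first a gamma-activated site core, searched as TTCNNNGAA, and, after 2 more bases, a response element core. Igtp (chr11:58199306-58199605, plus strand) and Irgm2 (chr11:58214727-58215026, plus strand) lie next to each other. In the GENCODE annotation their gene bodies overlap on the same strand (Igtp ends at 58207591 and Irgm2 starts at 58199618). Reads from that shared stretch could not be assigned to either with certainty. The RefSeq start used for the printed Irgm2 stretch lies past that end of Igtp, so the annotations differ on where Irgm2 starts.
Igtp: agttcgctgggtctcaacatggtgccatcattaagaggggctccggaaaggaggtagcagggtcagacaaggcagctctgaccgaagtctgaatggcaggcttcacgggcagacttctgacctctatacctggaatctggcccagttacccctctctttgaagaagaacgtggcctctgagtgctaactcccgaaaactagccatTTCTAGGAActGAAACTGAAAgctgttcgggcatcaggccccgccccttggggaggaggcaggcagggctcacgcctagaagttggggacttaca
Irgm2: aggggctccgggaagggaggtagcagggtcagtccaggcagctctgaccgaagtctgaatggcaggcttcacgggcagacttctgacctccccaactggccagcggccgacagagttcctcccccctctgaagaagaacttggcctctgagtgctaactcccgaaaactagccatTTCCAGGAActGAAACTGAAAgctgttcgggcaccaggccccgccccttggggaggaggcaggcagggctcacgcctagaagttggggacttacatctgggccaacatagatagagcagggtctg

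The response element core was found in 1131 of 32851 RefSeq promoters of this length (3.44%), and the gamma-activated site core in 2726 (8.30%). Counted per gene, 155 of the 3456 tested genes with a promoter in the table (4.48%) held the first and 267 (7.73%) the other. Among the 32 tested genes of the interferon effector lists that have a promoter in the table, 18 (56.2%) held the first and 8 (25%) the other. The share did not separate the genes that were 2-fold higher in members from those that were not: 12 of 21 (57.1%) and 6 of 11 (54.5%) held the response element core. A match describes letters and not binding, and neither core was found in this window for Oasl2, Irf7 or Ifi44.

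The rule genes were spread thinly over the members. Isg15, a ubiquitin-like protein joined to other proteins during an interferon response, was seen in 95 members. Ifit1 and Ifit3, which recognise foreign or unmodified RNA or help to hold it, were seen in 82 and 70. All 3 genes were present in 41 members, 2 in 55 and 1 in 14. Their sum was 3 UMIs at the lowest, 4 at the median and 66 at the highest. The groups cannot overlap in these genes because the rule separates them.

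The highest member stood well apart from the median. The member with the highest sum held 25 UMIs of Ifit3, 23 of Isg15 and 18 of Ifit1, which was 9.76% of the 676 UMIs of all members. It also held 42 of the 80 UMIs of Rsad2 in members. It had 7406 UMIs in all, with 16 of Cdh5 and 12 of Pecam1, and 12 UMIs of the epithelial list. At the other end, 31 members had exactly 3 UMIs of the rule genes, at 717 CPM together, and 89 endothelial barcodes just outside the rule had 2, at 479 CPM. Neighbouring counts on either side of the minimum thus differ by a single UMI.

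**Figure D1:**
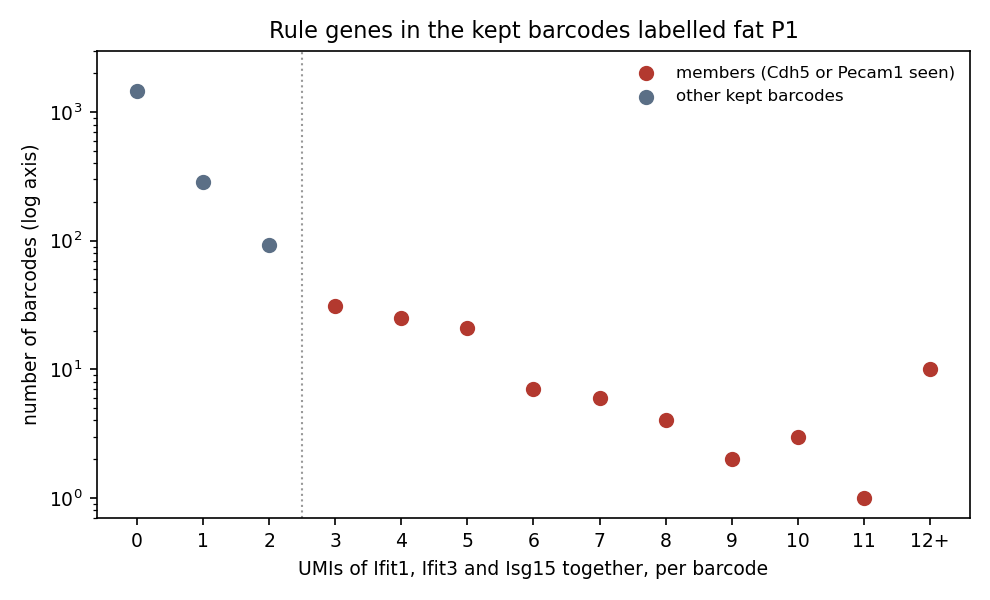
Number of kept barcodes of the library labelled fat P1 (log axis) by their UMIs of Ifit1, Ifit3 and Isg15 together. The red points are members and the blue-grey points barcodes under the 3-UMI minimum. Counts fall from 1457 barcodes at 0 UMIs to 31 at 3 with no gap, and 10 members hold 12 or more. The 3 barcodes with 3 or more UMIs and no Cdh5 or Pecam1 are not drawn.

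Being a member depended on depth. With the kept barcodes split by depth into 3 equal parts, members were 1.69% of the shallowest (0.848 to 3.01, exact Clopper-Pearson 95% interval), 5.86% of the middle and 9.40% of the deepest. After each barcode was thinned to 1000 UMIs, 25 of 1948 met the rule (1.28%, 0.832 to 1.89). With the 3-gene minimum alone, the share at this depth was also 1.28%, and 5.80% unthinned. It was 1.22% thinned and 7.65% unthinned for fat P2, 0.307% and 1.99% for labelled lung P1, and 0.139% and 0.905% for lung P2. A minimum of 1 UMI of the 3 genes gave another order. At 1000 UMIs it was met in 24.1% of labelled lung P1 barcodes and 11.3% of labelled fat P1 barcodes. In fat P2 the share was 9.79%, and in lung P2 3.27%. Unthinned, the 3 genes together stood at 265.5 CPM in labelled lung P1 and 178 CPM in labelled fat P1. They stood at 155 CPM in fat P2 and 40.2 CPM in lung P2. All intervals given here and below cover counting error only.

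Some barcodes on both sides held RNA of other cells. The epithelial list, which includes the surfactant genes and Ager, had 448, 321 and 259 UMIs in 3 members and at most 12 in any other. A single matched barcode held 4875 of the 5163 epithelial UMIs of its group. Mural genes summed to 12 UMIs in members and 274 in matched barcodes, and 193 of the 274 were in a single barcode. Macrophage and dendritic cell genes had 6 UMIs in members and 244 in matched barcodes, with 230 in a single barcode. Fibroblast genes had 11 UMIs in members and 135 in matched barcodes, with 105 in a single barcode. Most of the extreme ratios over all barcodes belonged to genes of such cells. The 12 highest were Ager, Rtkn2, Rsad2, Col4a3, Col4a4, Igfbp6, Ifit3b, Cyp2b10, Ndnf, Akap5, Krt7 and Igfbp2, and the 8 lowest were Sftpc, Sftpa1, Sftpb, Sftpd, Ccl21a, Lyz2, Tagln and Chia1. Ager, the receptor of alveolar type I cells, stood at 1256 CPM in members against 31.8 in matched barcodes, and Sftpc, a surfactant protein, at 92.5 against 7741.

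For this reason each comparison was also made without barcodes that held 10 or more UMIs of any other cell type, and with Cdh5 or Pecam1 required on both sides. This comparison, chosen after the counts had been seen and called the endothelial-only comparison below, kept 105 members and 105 matched barcodes. Ager then stood at 26.6 CPM in members and 2.23 CPM in matched barcodes, and Sftpc at 97.6 and 120 CPM. The minimum of 10 UMIs also took out the member with most rule-gene UMIs. That member held 12 UMIs of the epithelial list and 136 of the endothelial list, so a barcode left out is not always another cell type. In 12 barcodes rich in epithelial RNA with little endothelial RNA (median 4921 UMIs), Pecam1 was seen in 0, which allows a share of up to 25%, and Cdh5 in 1. Isg15 was seen in 0 of the 12, Ifit1 in 2 and Ifit3 in 7.

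Interferon-stimulated genes outside the rule were higher in members as a group. Of 4382 genes at 50 CPM or more in either group, 127 (2.9%) were at least 2-fold higher and 72 (1.64%) at least 2-fold lower in members. Of the 58 interferon genes among them, 32 were 2-fold higher (55.2%) and 0 lower. In the endothelial-only comparison, 68 of 4357 genes (1.56%) were higher and 40 (0.918%) lower, and the interferon genes were 27 higher and 0 lower of 56. The median log2 ratio over all tested genes was 0.02, and -0.01 in the endothelial-only comparison. Since the rule used interferon genes of the same barcodes, nothing is read from these counts beyond their size.

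The highest ratios of the endothelial-only comparison were mostly interferon genes. They were Ifit3b, Rsad2, Cdkn1c, Irf7, Ifi44, Usp18, Slfn2, Oasl2, Rtp4, Phf11d, Gbp6 and Sp100, in falling order. Cdkn1c, a cell cycle inhibitor, had 49 UMIs in members, 40 of them in a single member. Slfn2, a Schlafen family gene, was seen in 33 members and 5 matched barcodes, and Sp100, a nuclear body protein, in 67 members and 24 matched barcodes. The lowest were Ccl21a, Mmrn1, Fabp4, Endou, Lrg1, Ero1l, Slc6a2 and Gadd45b. The first of them, a lymphatic chemokine, had 0 UMIs in members and 176 in matched barcodes, which came from 2 barcodes. Lrg1, a secreted glycoprotein that acts on vessels, was seen in 5 members and 15 matched barcodes.

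Among the direct antiviral effectors, 11 of 20 measured genes were 2-fold higher and 0 lower, with a median log2 ratio of 1.05. Rsad2 encodes viperin, which makes a chain-terminating nucleotide. It had a UMI in 29 members and 1 matched barcode, with a log2 ratio of 3.80. The endothelial-only comparison leaves out the member with 42 UMIs, and the ratio was then 2.95, with at most 4 UMIs in any member. Ifi44 was seen in 47 members and 10 matched barcodes, at 203 CPM (166 to 246, exact Poisson 95% interval) in members and 19.9 CPM (9.53 to 36.5) in matched barcodes. Rtp4, a receptor transporter with antiviral action, was seen in 63 members and 13 matched barcodes, with a log2 ratio of 2.54. For each of the 3 genes the groups overlapped barcode by barcode, since many members had 0 UMIs.

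Broader antiviral genes showed smaller ratios on higher levels. Ifitm3, a membrane protein that blocks virus entry, had a median of 6.5 UMIs in members and 3 in matched barcodes, a highest count of 45 and 36, and a log2 ratio of 0.84. Parp14, an ADP-ribosyltransferase, was seen in 88 members and 50 matched barcodes, at 427 and 145 CPM. Bst2, which tethers virus particles to the membrane, was seen in 92 members and 91 matched barcodes, with a log2 ratio of 0.63. Ifitm2, a close relative of Ifitm3, differed little, with a log2 ratio of 0.03.

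The genes that process RNA and conjugate ISG15 were also higher. Oasl2, of the family of oligoadenylate synthetases that sense double-stranded RNA, had 0 to 9 UMIs in members (median 1) and 0 to 2 in matched barcodes (median 0). It was seen in 84 members and 21 matched barcodes, and its log2 ratio was 2.66, at 368 CPM (317 to 425) and 49.7 CPM (32.2 to 73.3). In the conjugation pathway 3 of 4 genes were 2-fold higher. Usp18, which removes ISG15 from proteins and dampens the interferon receptor, was seen in 41 members and 6 matched barcodes, and its log2 ratio was 2.75. Herc6, the mouse ligase for ISG15, was at 150 CPM in members and 47.7 CPM in matched barcodes. Uba7, its activating enzyme, was at 80.7 and 51.7 CPM.

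Among the sensors of foreign nucleic acid, 3 of 5 measured genes were 2-fold higher. Ddx58, which encodes RIG-I, was seen in 54 members and 27 matched barcodes, and Ifih1, which encodes MDA5, in 40 and 22. Their log2 ratios were 1.10 and 1.22. Among the other Ifit genes, Ifit2 was seen in 21 members and 4 matched barcodes. Ifit3b had 53 UMIs in 33 members and 0 in matched barcodes, which makes it at least 17.5-fold higher against 3 counts per group. Its sequence is close to that of Ifit3, a rule gene, so its counts are uncertain.

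**Figure D2:**
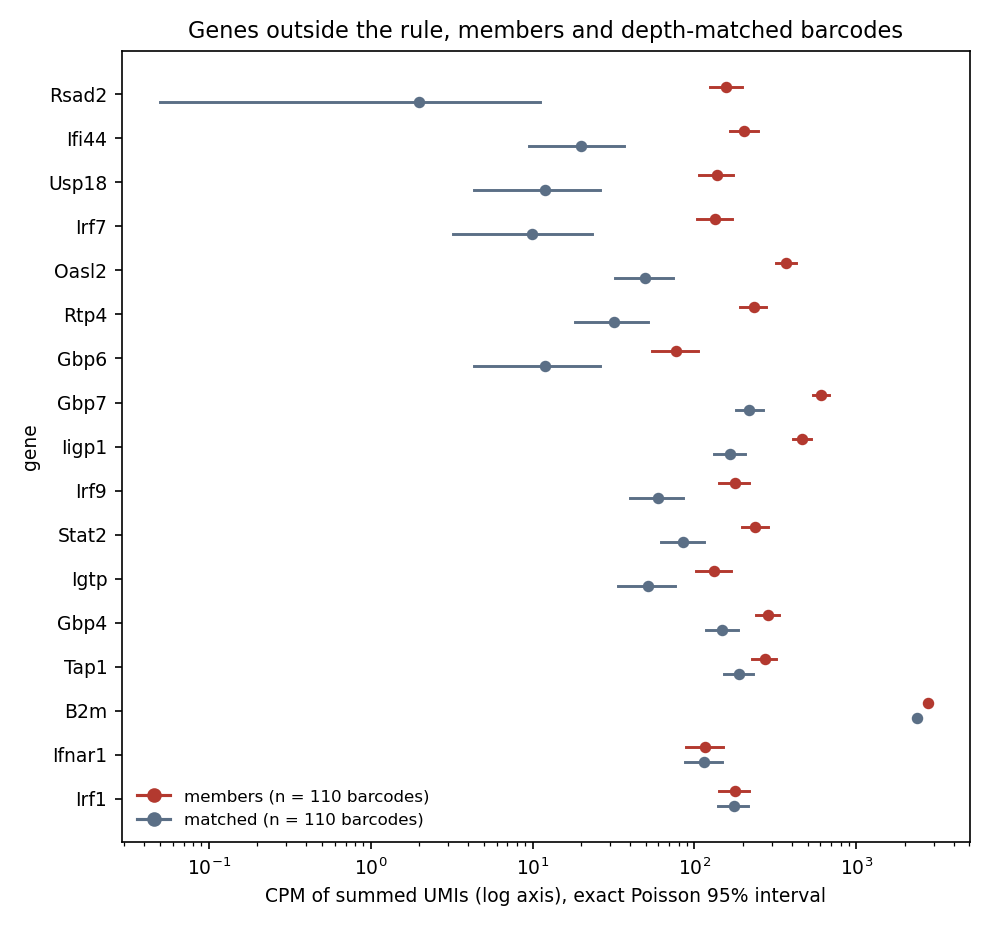
CPM of summed UMIs (log axis) for 17 genes outside the rule in members (red, upper) and matched barcodes (blue-grey, lower), with exact Poisson 95% intervals. The intervals of the groups lie apart for the genes from Rsad2 down to Gbp4, while Ifnar1 and Irf1 coincide.

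The interferon-induced GTPases, which act on the vacuoles of intracellular microbes, were higher in members but common outside them. In the immunity-related GTPase family 6 of 7 measured genes were 2-fold higher (median log2 ratio 1.20), and 4 of 7 in the endothelial-only comparison. In the guanylate-binding protein family 4 of 8 were higher in both comparisons (median 1.06 and 0.89). Iigp1 had 0 to 20 UMIs in members (median 1) and 0 to 19 in matched barcodes (median 0). It was seen in 69 members and 36 matched barcodes, at 463 CPM (405 to 526) and 165 CPM (131 to 204). Igtp was seen in 35 members and 18 matched barcodes, with a log2 ratio of 1.20, and 0.78 in the endothelial-only comparison. Gbp4 was seen in 56 members and 35 matched barcodes, with a log2 ratio of 0.88. The groups overlapped over almost their whole range in each of these genes.

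Gbp7 was the GTPase seen in the most members, 84 against 45 matched barcodes, and stood at 608 CPM (542 to 680) against 219 CPM (180 to 263). Gbp6 had the largest ratio of its family, with 39 UMIs in members and 6 in matched barcodes. Gbp8 went the other way, with 5 UMIs in members and 11 in matched barcodes. The members of this family are close in sequence, so counts of single genes are uncertain.

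Iigp1, Igtp and Gbp4 were counted together as a trio. At least 3 UMIs of the trio were found in 49 members (44.5%, 35.1 to 54.3) and in 21 matched barcodes (19.1%, 12.2 to 27.7). No UMI of the trio was found in 22 members and 45 matched barcodes. In the endothelial-only comparison the shares were 43.8% and 21.0%. Seen from the other side, 375 endothelial barcodes of the library had 3 or more trio UMIs, of which 49 were members (13.1%) and 231 had no UMI of the 3 rule genes. Within the 110 members the trio and the rule genes, both per UMI total, had a Pearson coefficient of 0.28 and a Spearman coefficient of 0.34. Both rates are divided by the same UMI total, and the rule set a minimum for one of them. The coefficients therefore cannot show whether the gene sets go together, and the barcodes share a library.

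Splitting by both gene sets showed which genes went with which. Oasl2 stood at 396 CPM in members with 3 or more trio UMIs and 340 CPM in the other members, against 109 CPM in the 231 barcodes with the trio and no rule gene and 56.9 CPM in the 1205 barcodes with neither. Irf7 stood at 165 and 103 CPM in members, against 17.9 and 18.9 CPM in the barcodes without the rule genes. Usp18 stood at 184 and 91.0 CPM in members, against 15.3 and 13.3 CPM. For Irf7 and Usp18, the intervals of barcodes without the rule genes overlapped with and without the trio.

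Other genes went with the trio whether or not the rule genes were present. Gbp7 stood at 792 CPM in members with the trio and 423 CPM in the other members, against 701 CPM and 194 CPM in the barcodes without the rule genes. Ciita, the transactivator of MHC class II genes and a known target of interferon gamma, had 22 of its 23 UMIs in members with the trio (86.2 CPM, 54.1 to 131) and 1 in the others (3.96 CPM). Without the rule genes it stood at 103 CPM with the trio and 17.2 CPM with fewer trio UMIs. The MHC class II list differed less in members, at 1435 CPM with the trio and 1179 CPM in the others. Without the rule genes that list stood at 1610 and 727 CPM. In members, H2-Aa stood at 310 CPM with the trio and 273 CPM in the others. H2-Ab1 stood at 345 and 265 CPM and H2-Eb1 at 212 and 127 CPM, with overlapping intervals. Cd74 went the other way, at 314 and 431 CPM. Rtp4, described above, was high in both classes of members, at 263 and 202 CPM, against 90.6 CPM with the trio and 43.9 CPM with fewer trio UMIs in the barcodes without the rule genes. Vessel genes differed along the same split. In the barcodes without the rule genes, aerocyte genes stood at 2172 CPM with the trio and 5858 CPM with fewer trio UMIs, general capillary genes at 12572 and 9448 CPM, and vein genes at 858 and 452 CPM. In members, vein genes stood at 929 CPM with the trio and 249 CPM without it, and aerocyte genes at 3669 and 4474 CPM. A single member held 77 of the 237 vein UMIs of members with the trio. The median over all members was 0 vein UMIs. The part of vessel type in the differences between these classes was not tested. Median depths of the 4 classes were 4490, 3897, 3298 and 2693 UMIs, so a deeper barcode had more chance to pass each minimum.

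**Figure D3:**
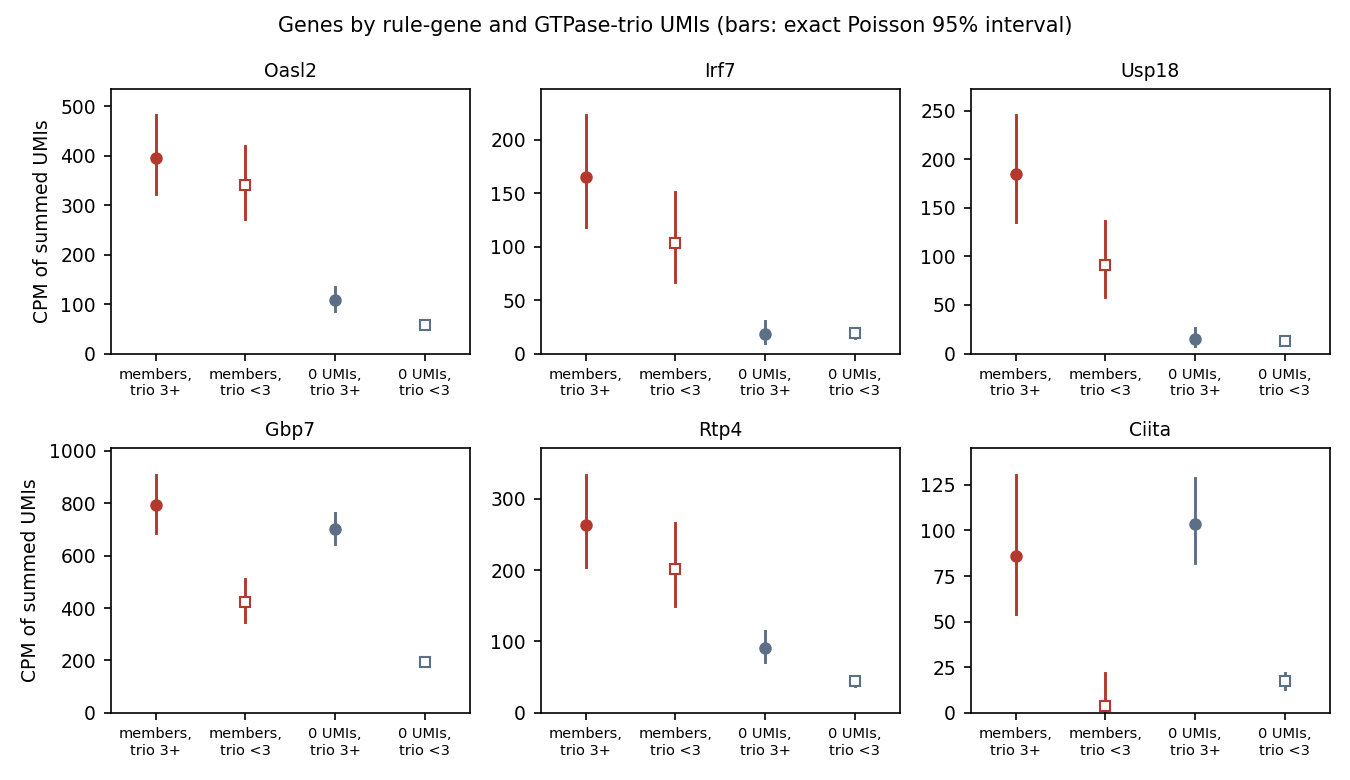
CPM of 6 genes in members with 3 or more or fewer UMIs of Igtp, Iigp1 and Gbp4 (red) and in endothelial barcodes with 0 UMIs of the rule genes, split the same way (blue-grey). Bars are exact Poisson 95% intervals. Irf7 and Usp18 are high in both red classes, whereas Ciita is high in the 2 classes with the trio.

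No interferon transcript was seen in the members at this depth. The 11 interferon genes of the list, including Ifnb1 and Ifng, had 0 UMIs in members and 0 in matched barcodes. The receptors differed little: the log2 ratios were 0.01 for Ifnar1 and 0.29 for Ifnar2, the chains of the type I receptor, and -0.03 for Ifngr1 and 0.09 for Ifngr2, the chains of the interferon gamma receptor. Ifnlr1, of the type III receptor, had 5 UMIs in 2 members and 0 in matched barcodes, and 0 UMIs in both groups of the endothelial-only comparison, and its partner Il10rb had a log2 ratio of 0.34. The kinases Jak1, Jak2 and Tyk2 had log2 ratios of 0.06, 0.66 and -0.33.

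Stat2 and Irf9, which act downstream of the type I receptor, were at least 2-fold higher in members. Stat2 was seen in 63 members and 29 matched barcodes (238 and 85.5 CPM) and Irf9 in 51 and 21 (177 and 59.6 CPM). Their log2 ratios were 1.38 and 1.43, and 1.22 and 1.60 in the endothelial-only comparison, whereas that of Stat3 was -0.06. Of the interferon regulatory factors, Irf7, which amplifies type I interferon production, had 0 to 8 UMIs in members and 0 to 1 in matched barcodes. It was seen in 45 members and 5 matched barcodes, with a log2 ratio of 2.85. Irf1, Irf2 and Irf3 had log2 ratios of 0.02, 0.13 and -0.62. Of the feedback genes other than Usp18, Cish, Ptpn2 and Socs3 had ratios of 0.07, 0.64 and 0.53 on the same scale, and none was 2-fold higher.

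Antigen presentation by MHC class I was slightly higher. All 20 measured genes stayed within 2-fold, with a median log2 ratio of 0.31, and 0.24 in the endothelial-only comparison. H2-T22, a non-classical class I gene, was seen in 72 members and 52 matched barcodes, with a log2 ratio of 0.78. Psmb8, a subunit of the immunoproteasome that cuts peptides, had 0.65, and Tap1, of the transporter that carries them, had 0.50. H2-K1, H2-D1 and B2m, which were seen in nearly every barcode of both groups, had 0.19, 0.17 and 0.21.

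MHC class II was uneven. H2-Aa stood at 291 CPM in members and 125 CPM in matched barcodes and was seen in 44 and 29 barcodes. H2-DMb1, a chaperone of peptide loading, was seen in 29 members and 11 matched barcodes, at 80.7 and 25.8 CPM. Cd74, the invariant chain, stood at 372 CPM in members and 366 CPM in matched barcodes, where a single barcode held 35.3% of its UMIs. In the endothelial-only comparison it stood at 415 CPM in members and 263 CPM in matched barcodes, and over the alternatives its log2 ratio ran from -1.08 to 1.43. The list had a median log2 ratio of 0.71, which was -0.16 when 2 UMIs of the rule genes were enough for membership, and H2-Aa then stood at -0.12.

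Chemokines and adhesion genes did not form a common pattern. Cxcl10, a classical interferon-induced chemokine, had 1 UMI in members and 2 in matched barcodes, and Cxcl9 had 0 in both. Cxcl12 and Cx3cl1 had log2 ratios of 0.23 and 0.47. Cd274, which encodes PD-L1, was seen in 17 members and 8 matched barcodes, with a log2 ratio of 1.14, and 0.71 in the endothelial-only comparison. Vcam1, a leukocyte adhesion molecule, was seen in 4 members and 7 matched barcodes, and 1 member held 86.9% of its 61 UMIs. Of 4 measured cell death genes, none was 2-fold higher or lower. The early response genes that tissue dissociation is known to induce had a median log2 ratio of -0.42 over 10 measured genes.

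Antiviral and immunity-related GTPase genes were higher in each class with more rule-gene UMIs, also below the minimum for members. Antiviral effectors stood at 3999 CPM in the 1436 endothelial barcodes with 0 UMIs of the rule genes, 4596 in 278 with 1 UMI, 5446 in 89 with 2, 5620 in 56 with 3 to 4 and 8445 in 54 with 5 or more. Immunity-related GTPases stood at 511, 618, 880, 887 and 1577 CPM over the same classes, and Oasl2 at 66.1, 125, 229, 283 and 454 CPM. The intervals of barcodes with 2 and with 3 to 4 UMIs overlapped in all 3 of these. Median depth ran from 2794 UMIs in the lowest class to 3993 in the highest.

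MHC class II did not follow these steps. It stood at 885, 933, 770, 691 and 1928 CPM over the same classes. Against their own matched barcodes, both classes of members were higher: the sum was 691 CPM (592 to 801) in members with 3 to 4 UMIs and 256 CPM (197 to 327) in theirs, and 1928 CPM (1761 to 2107) in members with 5 or more and 1493 CPM (1346 to 1651) in theirs. Members with 3 to 4 UMIs were thus higher than their matched barcodes but lower than all barcodes without the rule genes (885 CPM), which were not matched on depth. In the matched barcodes of the class with 5 or more, 1 barcode held 110 of the 378 UMIs of the list. MHC class I was uneven, at 13560, 14282, 15078, 13606 and 16803 CPM over the 5 classes.

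**Figure D4:**
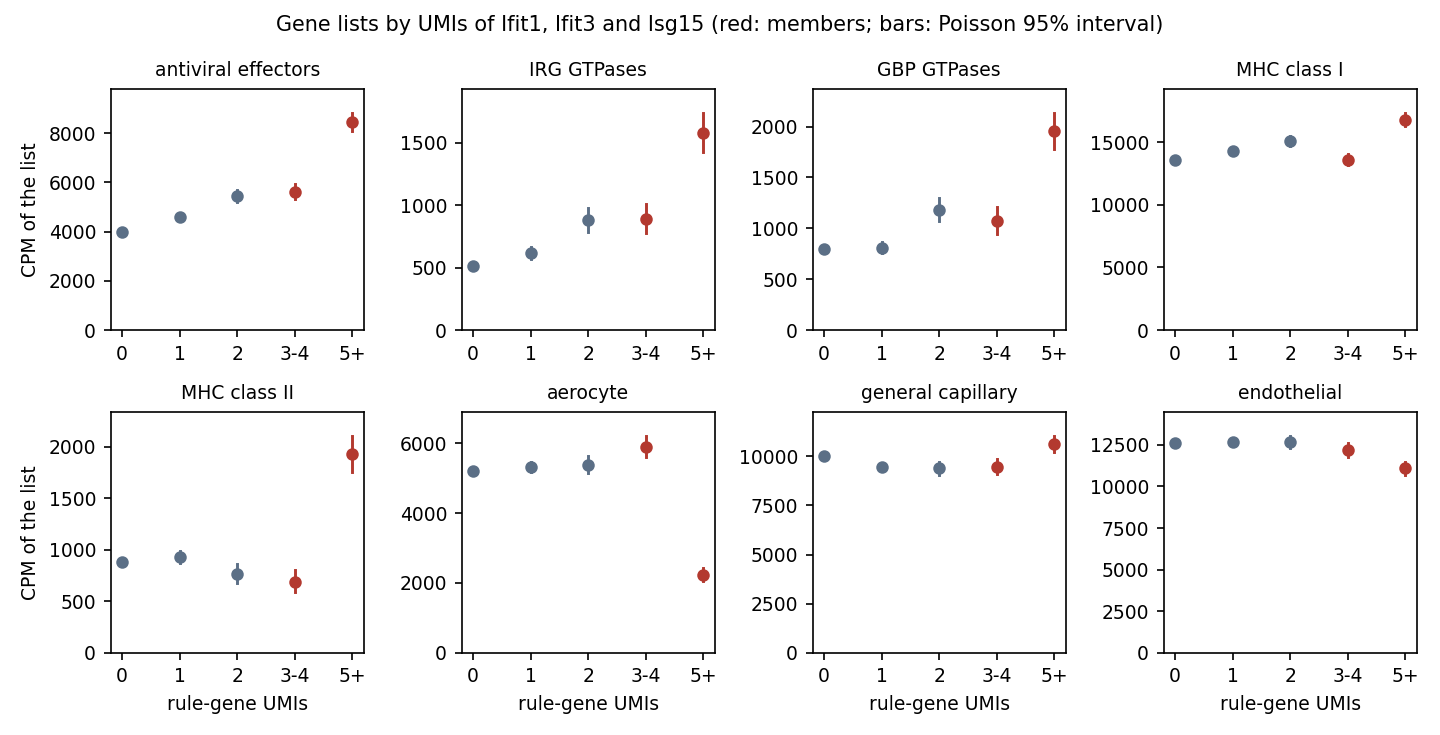
CPM of 8 gene lists in endothelial barcodes with 0, 1, 2, 3 to 4 or 5 or more UMIs of the rule genes (red classes are members), with exact Poisson 95% intervals. The antiviral and IRG lists climb from the first class on and the GBP list is uneven (806, 1179 and 1071 CPM with 1, 2 and 3 to 4 UMIs), whereas the MHC class II and aerocyte lists change most in the highest class, to 1928 and 2225 CPM.

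Members held less RNA of aerocytes, the flat capillary cells of the alveolus that serve gas exchange. All 9 aerocyte genes had negative log2 ratios (median -0.72), and 3 were at least 2-fold lower. Their sum was 4070 CPM in members and 6989 CPM in matched barcodes. Ednrb, an endothelin receptor, had 0 to 25 UMIs in members and 0 to 30 in matched barcodes. It was seen in 26 members and 39 matched barcodes, at 386 CPM (334 to 444) and 869 CPM (789 to 954). Fibin was seen in 21 members and 35 matched barcodes, and 1 member held 31.8% of its UMIs in members. Chst1, a sulfotransferase, was seen in 14 members and 30 matched barcodes. In the endothelial-only comparison the median was -0.80 with 2 of 9 genes 2-fold lower, and Ednrb stood at -0.98.

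The difference was present in both classes of members. The aerocyte sum of those with 3 to 4 UMIs of the rule genes was 5902 CPM (5608 to 6208), and 8337 CPM (7983 to 8703) in their own matched barcodes. For those with 5 or more it was 2225 CPM (2045 to 2416), and 5659 CPM (5370 to 5960) in theirs. These values per class were added after the classes had been seen. Over all endothelial barcodes, without matching on depth, the list stood at 5200 CPM with 0 UMIs of the rule genes, 5313 with 1, 5379 with 2, 5902 with 3 to 4 and 2225 with 5 or more, so the 56 members with 3 to 4 UMIs were lower than their matched barcodes but not lower than all barcodes without the rule genes. At least 3 aerocyte UMIs were found in 53 members (48.2%, 38.6 to 57.9) and 66 matched barcodes (60.0%, 50.2 to 69.2), and the intervals overlap.

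Genes of general capillary cells, the other capillary type of the alveolus, were slightly higher in members than in matched barcodes, but not against all unmatched barcodes without the rule genes, where the median log2 ratio was -0.03. The list summed to 10050 CPM in members and 7850 CPM in matched barcodes, with a median log2 ratio of 0.32 over 9 genes. Aplnr, the apelin receptor, was seen in 64 members and 41 matched barcodes, and its log2 ratio was 1.06. Gpihbp1, which anchors lipoprotein lipase, was seen in 90 members and 82 matched barcodes, with a log2 ratio of 0.55. Plvap, of the diaphragms of endothelial pores, had 0.52. The list reached 3 UMIs in 104 members and 102 matched barcodes, so nearly all barcodes of both groups carried it.

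Genes of the artery and vein lists were found in both groups. At least 3 UMIs of the artery list were found in 86 members and 74 matched barcodes, and of the vein list in 17 members and 28 matched barcodes. The general capillary list reached 3 UMIs in 104 members, so these counts do not show arterial or venous cells. The lymphatic list was uneven, since Lyve1 was at 799 CPM in members and 648 CPM in matched barcodes, while Ccl21a and Mmrn1 had 1 and 0 UMIs in members and came from 2 matched barcodes. The sort genes were close between the groups. Tek, which encodes Tie2, stood at 685 CPM in members and 590 CPM in matched barcodes. Eng, which encodes CD105, stood at 1244 and 1190 CPM, and Ly6a, which encodes Sca1, at 3074 and 2824 CPM. The gate was low for Sca1, yet Ly6a RNA was seen in 104 of the 105 members of the endothelial-only comparison. Pdgfra, excluded by the gate, had 2 UMIs in members and 14 in matched barcodes.

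**Figure D5:**
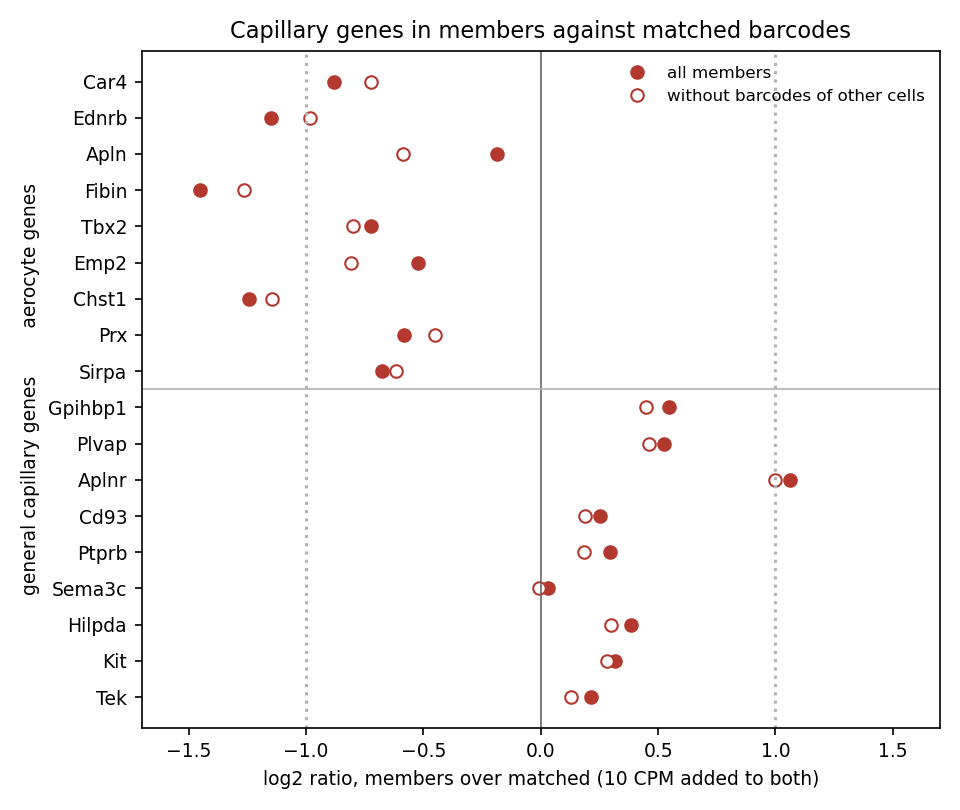
Log2 ratio of members over matched barcodes, with 10 CPM added to both, for 9 aerocyte genes (top) and 9 general capillary genes (bottom). Filled points are all 110 members and open points the 105 members of the endothelial-only comparison. All aerocyte genes lie left of 0, and dotted lines mark 2-fold.

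Barcodes with the 3 rule genes also occurred in fat P2, the PDGFRa-positive population. There 604 of 7898 kept barcodes had 3 or more UMIs, 0.662% of them with a Cdh5 or Pecam1 UMI, and were set against 604 matched barcodes of that library. Of 3317 tested genes, 43 (1.3%) were at least 2-fold higher and 7 (0.211%) at least 2-fold lower. The libraries differ in depth and cell type, so values are given side by side with no comparison of size. Antiviral effectors had a median log2 ratio of 1.05 in members and 1.08 in the fat P2 barcodes, immunity-related GTPases 1.20 and 1.69, and MHC class I 0.31 and 0.36. Oasl2 had log2 ratios of 2.66 and 2.18, Usp18 2.75 and 1.93, and Irf1 0.02 and -0.02. Ifi44 had a log2 ratio of 2.83 in members, whereas in fat P2 it stood at 4.37 CPM in barcodes with the rule genes and 0.438 CPM in the matched barcodes. The whole rule was met by 12 of 652 kept barcodes of labelled lung P1 and by 4 of 1436 of lung P2, which was too few to describe.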

How the data were processed

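The deposited files hold counts, that is whole UMIs per gene and cell barcode, without normalization, per the file headers. Cell Ranger 3.1.0 and the mm10 build are named in the submitters' processing notes. Libraries were made with a 10x Genomics kit for the 3' ends of transcripts, per the labels' protocols. Labelled fat P1 held 3783 barcodes and 8866500 UMIs, with 1948 barcodes kept. For fat P2 these were 9025, 44711105 and 7898, for labelled lung P1 1305, 1510443 and 652, and for lung P2 2860, 5348607 and 1436. Gene IDs with the same symbol (35 symbols) were added up.

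UMIs were summed over members and over matched barcodes and scaled to CPM. Ratios are log2 after adding 10 CPM, for genes at 50 CPM or more in either sum (list members at 20 CPM), and at least 2-fold counts as called. The rule genes, Cdh5 and Pecam1 stayed out of counts. Each group is 1 library, so no test was possible. Intervals are exact Poisson for CPM and exact Clopper-Pearson for shares, at 95%, and a count of 0 is limited at 3 counts of the total. The log2 ratios were tested on simulated sums with known folds. The simulation had no variation between barcodes, so it does not cover genes whose UMIs lie mostly in a single barcode. Members and the 39 gene lists were chosen with earlier results of these data known. Named genes are the 12 highest and 8 lowest ratios (in both comparisons), up to 4 genes per list by size of ratio, and all receptors, kinases, STAT and IRF genes measured, plus the sort genes. Other names were chosen after values were seen. A gene that this rule covers is not reported here. Doublets were left in and removed with Scrublet as an alternative: its highest scores, at 0.8% per 1000 barcodes, took out 30 barcodes, 3 of them members, and its automatic threshold marked 10. Gene bodies came from GENCODE vM21 by gene ID. Python 3.11.15, numpy 2.4.6, scipy 1.17.1, scanpy 1.11.5 and edgeR 4.0.16 (TMM factors) were used.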

Additional observations from a re-analysis of the deposited data

Results flagged for a closer look

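Barcodes outside the comparison held the same genes. Of 1645 barcodes removed for over 10% mitochondrial UMIs, 17 (1.03%, 0.603 to 1.65, exact Clopper-Pearson 95% interval) had 3 or more UMIs of Ifit1, Ifit3 and Isg15 and a UMI of Cdh5 or Pecam1. These are the genes of the rule itself, so this is a count of barcodes left out and no further signal. These 17 had a median of 2377 UMIs, against 1014 in all the removed barcodes.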

How the results depend on the processing

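No paired analysis was possible because each group has 1 library and matched barcodes are not replicates. Of 203 alternative values for the main results, 133 stayed within 1.5 times (counts of genes) or within the counting error of the reported value (medians and shares) and 70 moved. The causes were not tested.

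The genes higher and lower in members (127 and 72) numbered 57 and 31 with a rule of 2 UMIs, 236 and 145 with 5 UMIs, 220 and 127 at 5% mitochondrial UMIs, 242 and 249 without barcodes with 2 UMIs of other cells, 58 and 28 with 50 CPM added, 216 and 157 with a floor of 20 CPM, 263 and 237 with none, and 68 and 40 in the endothelial-only comparison. Lower genes alone moved to 41 with 3 matched barcodes per member and 14 without matching. The share of higher among called genes was 63.8%, but 87.5% without matching (98 higher), 49.3% without barcodes with 2 UMIs of other cells and 52.6% without a floor.

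Antiviral effectors (median log2 ratio 1.05) stood at 0.79 with 2 UMIs, 1.22 with 5 UMIs, 1.15 with totals matched without the rule genes, 0.82 at 5% mitochondrial UMIs, 1.18 with 1 CPM added and 0.81 with 50 CPM. Immunity-related GTPases (1.20) stood at 1.44 at 5% mitochondrial UMIs and 0.84 with 50 CPM. Guanylate-binding proteins (1.06) stood at 0.85 with 3 matched barcodes, 0.84 unmatched, 1.39 with totals without the rule genes, 1.41 at 5% mitochondrial UMIs, 1.32 as a mean over barcodes and 0.70 with 50 CPM. MHC class I (0.31) stood at 0.24 with 3 matched barcodes, 0.37 both with totals within 10% and with 3 UMIs of Cdh5 and Pecam1, 0.25 with 2 UMIs, 0.49 with 5 UMIs, 0.43 without barcodes with 2 UMIs of other cells, 0.36 as a mean, 0.26 with 50 CPM and 0.24 in the endothelial-only comparison.

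MHC class II (0.71) stood at 0.24 with 3 matched barcodes, 0.31 unmatched, -0.16 with 2 UMIs, 1.49 at 5% mitochondrial UMIs, 1.29 without barcodes with 2 UMIs of other cells and 0.39 with 50 CPM. The aerocyte list (-0.72) stayed negative in all 17 alternatives that gave it, at -0.96 with 3 matched barcodes, -0.59 unmatched, -0.64 both with totals within 10% and with 3 UMIs of Cdh5 and Pecam1, -0.48 with 2 UMIs, -1.28 with 5 UMIs and without barcodes with 2 UMIs of other cells, -0.83 after Scrublet and as a mean, and -0.64 with 50 CPM.

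Members with 3 trio UMIs (44.5%) were 59.3% with a rule of 5 UMIs, 58.8% with both the rule and the trio at 2 UMIs and 67.5% with both at 1 UMI. Endothelial barcodes with 0 UMIs of the rule genes, not matched on depth, reached 16.1% at 3 trio UMIs, 26.3% at 2 and 49.5% at 1. After thinning to 1000 UMIs, 3 of 25 barcodes that met the rule had 3 trio UMIs (12%, 2.55 to 31.2). Without the rule genes the thinned share was 4.32% (3.39 to 5.42), and the intervals overlap. Members and matched barcodes with aerocyte UMIs (48.2% and 60.0%) were 30.4% and 43.5% without barcodes with 2 UMIs of other cells, 61.8% and 72.7% at 2 aerocyte UMIs and 31.8% and 46.4% at 5, and matched barcodes alone were 47.8% unmatched and 48.1% with a rule of 5 UMIs. The share meeting the rule at 1000 UMIs (1.28%) was 5.65% without thinning and 3.15% at 2000 UMIs.

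Directions turned for 7 of the named genes that were at least 2-fold higher or lower. H2-Aa turned to -0.12 with 2 UMIs. Sftpa1 and Sftpd turned to 0.25 and 0.46 at 5% mitochondrial UMIs, to 0.46 and 1.13 without barcodes with 2 UMIs of other cells, and to 0.10 and 0.53 in the endothelial-only comparison. Krt7 and Rtkn2 turned to -0.0016 and -0.68 without barcodes with 2 UMIs of other cells, and Akap5, Igfbp6 and Rtkn2 to -0.0017, -0.0010 and -0.29 in the endothelial-only comparison. Among genes within 2-fold, H2-Ab1 (0.71) turned to -0.31 with 2 UMIs, and Cd74 (0.02) ran from -1.08 to 1.43. Oasl2 stayed between 2.07 and 2.87 and Iigp1 between 1.25 and 1.73. At a median of about 4 UMIs of the rule genes per member, membership itself is limited by depth.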
